A study of Mus musculus with 4 samples.

Results

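The 46 genes described here encode proteins of the nucleolus and of ribosome biogenesis, the process by which a cell builds its ribosomes. They were taken by gene symbol from a list of known factors, which was chosen with earlier results of these data known. All 46 were among the 56748 genes of the deposited table, and all 46 passed the filter on low counts that left 18157 genes for testing. They were read in 6 roles, namely 8 genes of RNA polymerase I (Pol I) transcription, 6 nucleolar phosphoproteins and chaperones, 4 proteins of box C/D and 4 of box H/ACA small nucleolar ribonucleoproteins (snoRNPs), 15 factors of small subunit processing and 9 of large subunit processing.

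RNA was sequenced from E14, a line of mouse ES cells kept without feeder cells in medium with serum and LIF. WT cells gave 2 libraries (WT1 and WT2), and each of 2 Npac KO clones, made with CRISPR/Cas9 and guide RNAs against an exon of Npac, gave 1 library (KO1 and KO2). The KO cells had been electroporated with plasmids, selected with puromycin and picked as colonies, so knockout, selection and growth from a clone cannot be told apart here. The labels do not say whether the WT libraries came from separate cultures, and p-values measure only the spread between these libraries, which may be technical.

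Total counts lay between 15850805 and 16965120 reads per library. Npac, listed as Glyr1, held 3961 and 3115 reads in WT1 and WT2 and 744 and 888 reads in KO1 and KO2, and it was down-regulated by 2.14 on the log2 scale (SE 0.23, adjusted p = 0.00174). All 10 ES cell markers examined, among them Pou5f1, Sox2 and Nanog, reached 1 CPM in both genotypes. CPM stands for the counts scaled to a common library size by TMM, and it is not corrected for gene length.

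Ribosomes are assembled in the nucleolus around the genes for ribosomal RNA. Pol I, recruited by UBTF and by a complex that holds TAF1B, and made competent by RRN3, transcribes a long precursor RNA. Box C/D and box H/ACA snoRNPs then modify it by methylation and pseudouridylation, the small subunit processome and the large subunit assembly factors cut and fold it, and ES cells, which divide fast, depend on a high output of this pathway.

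Promoter sequences were compared first, because many genes of this pathway are known to carry an E-box, the motif CACGTG that MYC and related factors bind. The RefSeq promoters used here (build GRCm38.p6, 250 bases before to 50 after an annotated start) covered 40 of the 46 genes, and no entry was held for Bop1, Npm1, Rrp12, Tcof1, Fbl and Gnl2. CACGTG, which reads the same on both strands and was the only motif searched, stood in a promoter of 11 of the 40 genes (27.5%). It stood in a promoter of 8.09% of all 27025 genes of the promoter table, of 11.4% of the tested genes with a promoter and of 16% of 106 other ribosome biogenesis genes. Among the genes up-regulated in Npac KO cells, described further on, 4 of 11 with a promoter held it (36.4%), and among the others 7 of 29 did (24.1%). The motif's windows are shown 5′ to 3′ on the gene's strand, with the motif in capitals and up to 12 bases on each side, for the 4 up-regulated genes and then for the 7 others, of which Rrn3 held 2 sites.
Mybbp1a (chr11:72441355-72441376, plus strand): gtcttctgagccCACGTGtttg
Pes1 (chr11:3963965-3963994, plus strand): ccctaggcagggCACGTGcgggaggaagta
Utp18 (chr11:93885769-93885798, minus strand): gcgagcgccggtCACGTGgcttgcggcggc
Utp4 (chr8:106893643-106893672, plus strand): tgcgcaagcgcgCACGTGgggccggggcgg
Imp4 (chr1:34439696-34439725, plus strand): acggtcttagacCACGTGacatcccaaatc
Ltv1 (chr10:13193092-13193121, minus strand): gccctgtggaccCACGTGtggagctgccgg
Nop2 (chr6:125131811-125131840, plus strand): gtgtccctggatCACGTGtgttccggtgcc
Rrn3 (chr16:13780472-13780501, plus strand): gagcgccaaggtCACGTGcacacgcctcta
Rrn3 (chr16:13780639-13780668, plus strand): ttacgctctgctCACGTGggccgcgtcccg
Tsr1 (chr11:74898092-74898121, plus strand): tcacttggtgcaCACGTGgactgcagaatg
Utp20 (chr10:88826765-88826789, minus strand): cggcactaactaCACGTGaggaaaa
Wdr43 (chr17:71616220-71616249, plus strand): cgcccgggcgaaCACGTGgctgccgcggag

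In Utp18 the motif began 20 bases before the start, in Pes1 2 bases, in Utp4 15 bases and in Mybbp1a 40 bases after it. The 250 bases before the Utp18 start (GRCm38.p6, chr11:93885767-93886016, minus strand) are shown because Utp18 was up-regulated under every setting tried.
Utp18: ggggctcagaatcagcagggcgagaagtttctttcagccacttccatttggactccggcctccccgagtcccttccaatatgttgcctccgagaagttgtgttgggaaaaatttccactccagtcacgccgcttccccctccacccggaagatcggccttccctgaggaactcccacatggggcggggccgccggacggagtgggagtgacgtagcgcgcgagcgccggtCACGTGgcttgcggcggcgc

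These matches describe letters in a window and say nothing of what binds there. The shares in up-regulated and other genes rest on 11 and 29 genes. All 4 up-regulated genes with the motif lie on chromosomes 8 and 11. There 26.5% of all genes tested were up-regulated, against 8.61% on the other chromosomes. Nop10, Nolc1, Polr1b, Polr1e and Bms1, up-regulated genes on other chromosomes, had a promoter without the motif. So had Nhp2 on chromosome 11 and Nob1 on chromosome 8, which were up-regulated too. Whether the motif bears on the rise was not tested.

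In Npac KO cells, most of the 46 genes were measured above WT. Between the 2 genotypes, 14 genes were up-regulated (30.4%), against 11% of all genes tested, 1 was down-regulated (2.17%), against 10.7%, and 31 were not called. A call required an adjusted p under 0.05 (Benjamini-Hochberg over all genes, from the quasi-likelihood test of edgeR) and a fold change over 1.5. Both KO libraries lay above both WT libraries for 31 genes (67.4%), against 33.2% of all genes, and below both for 2 genes (4.35%), Nop14 and Ltv1, against 32.5%. The libraries overlapped for the other 13 genes. The median log2 fold change of the 46 genes was 0.42, against 0 for all genes, and the range ran from -0.73 to 1.43. The genes were well expressed, at 30.4 CPM or more on average over the libraries. Among the 6904 genes at or above that level, 13% were up-regulated and 11.1% down-regulated.

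The 46 genes together took 0.914% and 0.881% of all reads in WT1 and WT2 and 1.4% and 1.27% in KO1 and KO2. Both KO libraries gave this group a larger share of their reads than either WT library. The summed level was 9490 and 8350 CPM in WT1 and WT2 and 14600 and 12400 CPM in KO1 and KO2. Without the 9 genes on chromosomes 8 and 11, described further on, it was 6510 and 5890 CPM in WT and 8050 and 7060 CPM in KO cells. Much of the rise in the sum thus came from those 9 genes. In bulk samples, a change in the make-up of the cells and a change in RNA per cell cannot be told apart.

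The number of calls depended on the libraries. Without KO1, 5 genes remained up-regulated (Mybbp1a, Nhp2, Npm1, Utp18 and Utp4) and none down-regulated. Without KO2, these 5 and Nolc1, Nop10 and Pes1 were up-regulated and none was down-regulated. In these fits the lone KO library was assumed to vary like the WT pair, and the share of all genes called was 4.4% and 4.31% for up-regulation and 4.26% and 4.28% for down-regulation. Without WT1, 20 of the 46 genes were up-regulated, against 14.4% of all genes, and without WT2 there were 16, against 18.7%. The additional calls were Ubtf, Rrn3, Dkc1, Tsr1, Imp4 and Utp20 without WT1 and Nop16, Polr1d and Rrp9 without WT2.

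**Figure D1:**
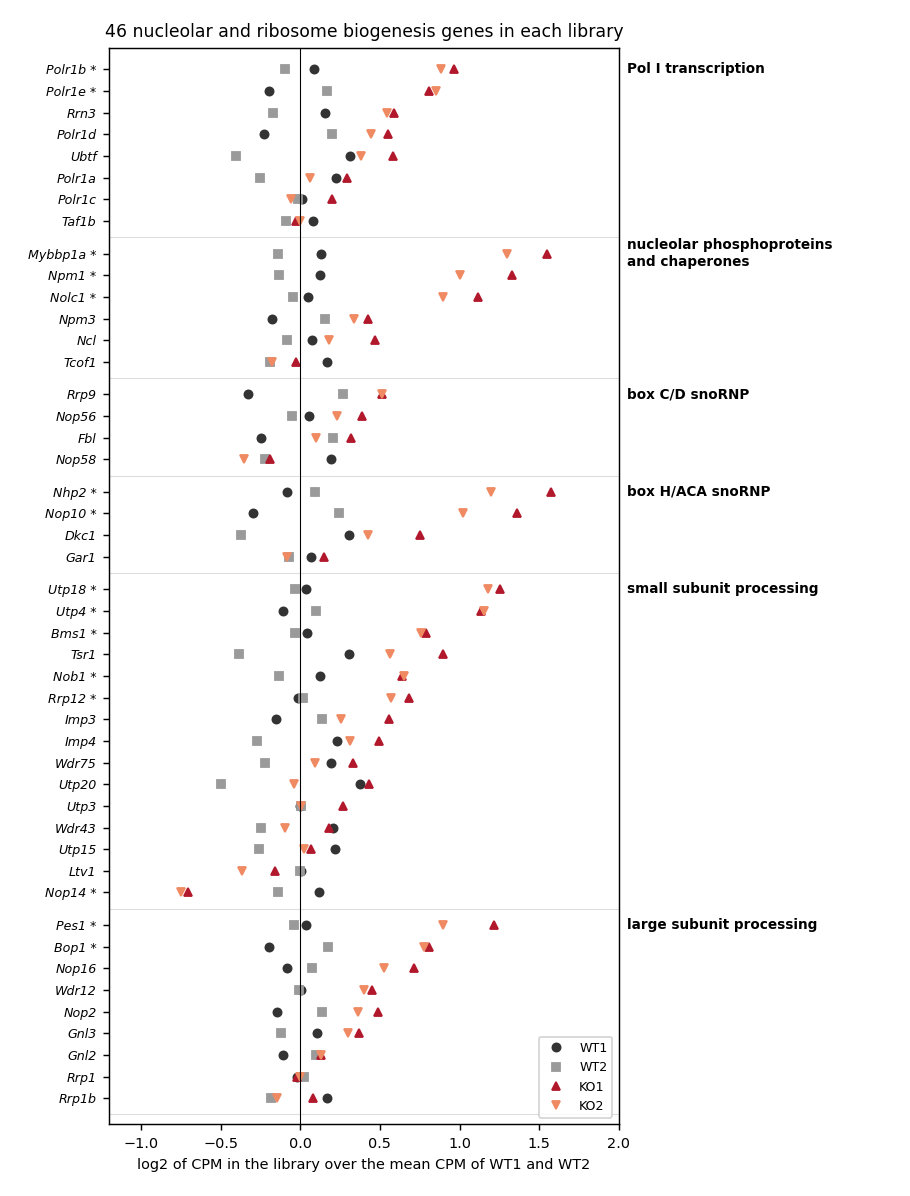
Log2 of each library's CPM over the mean CPM of WT1 and WT2 (x axis) for the 46 genes (y axis), grouped by role. Circles and squares are WT1 and WT2, triangles are KO1 and KO2, and an asterisk marks the 15 genes past both thresholds; 31 genes have both KO libraries to the right of both WT libraries.

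Of the 8 genes of Pol I transcription, 2 were up-regulated (25%, against 11% of all genes tested), none was down-regulated and 6 were not called. Their median log2 fold change was 0.49. No role's share of calls was tested against that of all genes, and roles were not split by chromosome. On chromosomes 8 and 11, which hold 7 of the 14 up-regulated genes, 26.5% of all genes tested were up-regulated. Polr1b, which encodes a core catalytic subunit of Pol I, measured 80.6 and 71.1 CPM in WT1 and WT2 and 148 and 140 CPM in KO1 and KO2. Its genotypes did not overlap, and it rose by 0.92 on the log2 scale (SE 0.18, adjusted p = 0.0119). Polr1e, a subunit of the PAF53 and PAF49 heterodimer of Pol I, was the least abundant of the 46 per gene length in WT cells and measured 21.1, 27.2, 42.4 and 43.7 CPM in the same order. The KO libraries lay above the WT libraries here too, with a log2 fold change of 0.83 (SE 0.22, adjusted p = 0.0319). Neither call held without KO1 (or without KO2), and Polr1e overlaps Fbxo10, which lies on the opposite strand and was down-regulated (log2 fold change -0.92, adjusted p = 0.0268).

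The largest Pol I subunit and the factors that bring Pol I to its promoter were not called with all 4 libraries. Polr1a, the largest subunit, measured 182 and 131 CPM in WT cells and 191 and 163 CPM in KO cells, so that KO2 lay between the WT libraries (log2 fold change 0.18, SE 0.21, adjusted p = 0.581). Ubtf, the architectural factor of ribosomal DNA, measured 353 and 215 CPM in WT and 426 and 370 CPM in KO cells. All KO values were the higher ones, but the WT libraries lay farther apart than the genotype means, and the log2 fold change of 0.49 had an SE of 0.26 (adjusted p = 0.208). It was 0.86 and called without WT1 (adjusted p = 0.00178), 0.17 without WT2 and 0.02 with the chromosome medians removed, that is, once the median of each chromosome was taken out of each KO library. Rrn3, the initiation factor that binds Pol I and holds 2 of the E-boxes shown above, measured 179 and 143 CPM in WT and 242 and 235 CPM in KO cells. Its groups did not overlap, and its log2 fold change of 0.57 missed the threshold (SE 0.19, adjusted p = 0.0684), which it passed with upper-quartile normalization (adjusted p = 0.0478) and without WT1 (adjusted p = 0.005). Polr1d, a subunit shared by Pol I and Pol III, had KO above WT and was at 0.50 (adjusted p = 0.115). For Polr1c, the other shared subunit, and for Taf1b, of the promoter selectivity complex, the libraries overlapped and the log2 fold changes were 0.07 and -0.01.

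Of the 6 nucleolar phosphoproteins and chaperones, 3 were up-regulated (50%, against 11% of all genes tested) and none was down-regulated. The median log2 fold change was 0.70. Mybbp1a, a nucleolar protein that binds MYB and takes part in ribosomal RNA synthesis, measured 418 and 346 CPM in WT1 and WT2 and 1120 and 938 CPM in KO1 and KO2. The KO levels were well above the WT levels, by 1.43 on the log2 scale (SE 0.21, adjusted p = 0.00483), which was the highest value among the 46. Npm1, nucleophosmin, the abundant histone chaperone of the granular component, measured 1600 and 1340 CPM in WT and 3700 and 2940 CPM in KO cells. It rose by 1.18 (SE 0.22, adjusted p = 0.0109) without overlap. Nolc1, a phosphoprotein that carries snoRNPs and scaffolds Pol I, measured 186 and 174 CPM in WT and 390 and 335 CPM in KO cells, and its rise was 1.01 (SE 0.18, adjusted p = 0.0101).

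Ncl, nucleolin, which binds nascent ribosomal RNA, measured 1650 and 1480 CPM in WT and 2170 and 1780 CPM in KO cells. The 2 groups did not overlap, but KO2 stood only slightly above WT1, and the log2 fold change of 0.33 was not called (SE 0.20, adjusted p = 0.27). Npm3, a nucleoplasmin relative that binds Npm1, had KO above WT, at 0.39 (adjusted p = 0.181). Tcof1, treacle, which links Pol I to modification, was at 327 and 255 CPM in WT and 286 and 257 CPM in KO cells, with both KO values inside the WT range. Ncl and Npm1 together held 34.2% and 33.8% of the reads of the 46 genes in WT cells and 40.2% and 37.9% in KO cells. With both set aside, 13 of the other 44 genes were up-regulated (29.5%, against 11% of all genes tested) and their median log2 fold change was 0.42.

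**Figure D2:**
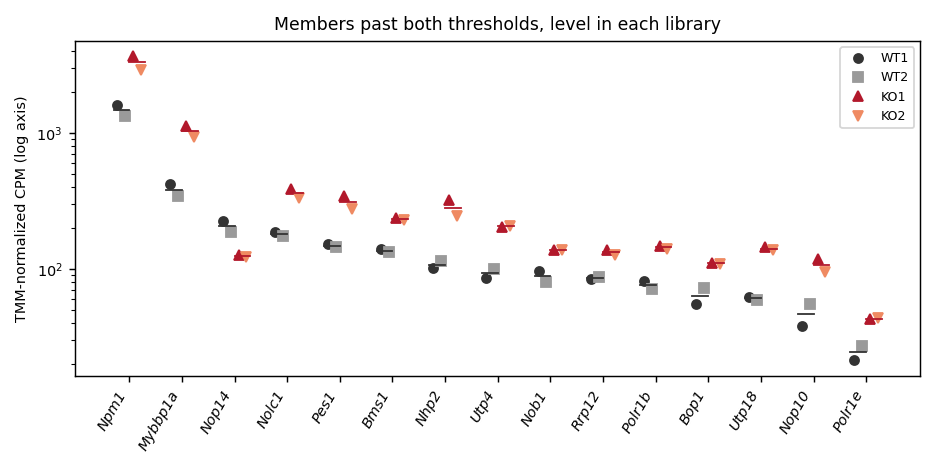
CPM (log axis) of the 14 up-regulated genes and of Nop14, the down-regulated gene, with a point for each library and a short line at the mean of each genotype (n = 2). For each gene the KO points lie on one side of the WT points, from 1600 and 1340 CPM against 3700 and 2940 CPM for Npm1 to 21.1 and 27.2 CPM against 42.4 and 43.7 CPM for Polr1e.

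None of the 4 box C/D proteins among the 46 genes was called. Over all genes tested 11% were up-regulated and 10.7% down-regulated, and 4 genes are too few to show a contrast to those shares. The median log2 fold change of the 4 genes was 0.26. Fbl, fibrillarin, the methyltransferase of the box C/D particle, measured 197 and 270 CPM in WT and 292 and 251 CPM in KO cells. KO2 lay between the WT libraries (log2 fold change 0.22, SE 0.21, adjusted p = 0.502). Nop56, a scaffold of the same particle, measured 307 and 285 CPM in WT and 387 and 348 CPM in KO cells, which did not overlap and was not called (log2 fold change 0.31, SE 0.18, adjusted p = 0.242). Nop58, its partner, was at -0.27 (adjusted p = 0.378) with overlap, and Rrp9, the U3-specific protein, at 0.51 (adjusted p = 0.143) without overlap. Snu13, a core protein of the same particle that is not among the 46, was at -0.09 (adjusted p = 0.768).

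Of the 4 box H/ACA proteins, 2 were up-regulated (50%, against 11% of all genes tested), and the median log2 fold change was 0.90. Here too, 4 genes are too few to show a contrast to that share. Nhp2, an RNA-binding core protein, measured 101 and 114 CPM in WT1 and WT2 and 319 and 245 CPM in KO1 and KO2. It rose by 1.39 (SE 0.20, adjusted p = 0.00502), and the lowest KO value was above the highest WT value. Nop10, the smallest core protein, measured 37.7 and 55 CPM in WT and 119 and 94.4 CPM in KO cells and rose by 1.20 (SE 0.24, adjusted p = 0.0134). Dkc1, dyskerin, the pseudouridine synthase of the same particle, was not called with all 4 libraries. It measured 178 and 111 CPM in WT and 242 and 193 CPM in KO cells, with KO above WT and a log2 fold change of 0.59 (SE 0.26, adjusted p = 0.135). That value ran from 0.29 without WT2 to 0.95 without WT1, and Dkc1 was called in 3 of 14 other settings, namely without WT1, with no filter on low counts and with the replicate number as a block. Gar1, the remaining core protein, overlapped between genotypes at 0.04 (adjusted p = 0.908).

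Small subunit processing was the largest role, with 15 genes, at a median log2 fold change of 0.41. Of these, 5 were up-regulated (33.3%, against 11% of all genes tested) and 1 was down-regulated (6.67%, against 10.7%). Utp18, a WD-repeat protein of the small subunit processome, measured 61.8 and 59 CPM in WT1 and WT2 and 144 and 137 CPM in KO1 and KO2. The replicates were close to each other in both genotypes, and Utp18 rose by 1.22 (SE 0.17, adjusted p = 0.00464). Utp4, of the t-UTP subcomplex that binds the start of the precursor, measured 85.8 and 99.1 CPM in WT and 203 and 206 CPM in KO cells, a rise of 1.15 (SE 0.18, adjusted p = 0.00616). Bms1, a GTPase of the processome, measured 140 and 133 CPM in WT and 235 and 230 CPM in KO cells, a rise of 0.77 (SE 0.17, adjusted p = 0.0193). In all 3 genes both KO libraries lay above both WT libraries.

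Nob1, the endonuclease that makes the mature end of 18S ribosomal RNA, measured 95.6 and 80.2 CPM in WT and 137 and 138 CPM in KO cells (log2 fold change 0.65, SE 0.18, adjusted p = 0.0405). Its call was lost without WT2, without KO1, without KO2 and with the chromosome medians removed, where the value was 0.16. Rrp12, an export and maturation factor, measured 84.5 and 86.5 CPM in WT and 137 and 127 CPM in KO cells (log2 fold change 0.63, SE 0.17, adjusted p = 0.0375). Rrp12 and Bms1 lost their calls without KO1 and without KO2.

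Nop14, a processome protein needed for 18S maturation, went the other way and was the only down-regulated gene of the 46. It measured 225 and 188 CPM in WT1 and WT2 and 127 and 123 CPM in KO1 and KO2, and its log2 fold change was -0.73 (SE 0.18, adjusted p = 0.0285). The genotypes did not overlap, and the call was lost without KO1 and without KO2. Per gene length, Nop14 ranked 4 of the 46 genes in WT cells and 22 in KO cells. Ltv1, a late factor of the small subunit, also had both KO values, 78 and 67.5 CPM, below the WT values of 87.2 and 86.6 CPM, and it was not called (log2 fold change -0.26, adjusted p = 0.334).

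The other 8 genes of this role were not called. Tsr1, a late GTPase-like factor, was the nearest to a call, at 109 and 67.4 CPM in WT and 164 and 130 CPM in KO cells (log2 fold change 0.74, SE 0.26, adjusted p = 0.0767). Imp3 and Imp4, partners of Mpp10 that join U3 to the precursor, both had a log2 fold change of 0.41 with KO above WT (adjusted p = 0.187 and 0.218). Utp3 had 0.14, also with KO above WT, by less than the KO libraries differed. Utp20, a large scaffold protein, Wdr43 and Utp15 of the t-UTP subcomplex, and Wdr75 overlapped between genotypes, at 0.21, 0.05, 0.05 and 0.22. Utp20 was also the gene with the largest difference within a genotype, with 135 and 73.5 CPM in WT1 and WT2.

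Of the 9 genes of large subunit processing, 2 were up-regulated (22.2%, against 11% of all genes tested) and none was down-regulated, at a median of 0.42. Pes1 and Bop1, which form the PeBoW complex with Wdr12, were the 2 called genes. Pes1 measured 152 and 144 CPM in WT1 and WT2 and 344 and 276 CPM in KO1 and KO2 and rose by 1.07 (SE 0.19, adjusted p = 0.00972). Bop1 measured 55.4 and 71.7 CPM in WT and 111 and 109 CPM in KO cells and rose by 0.79 (SE 0.20, adjusted p = 0.0275). Both genes had KO above WT. Wdr12 measured 80.6 and 80.1 CPM in WT and 110 and 106 CPM in KO cells, also without overlap, and its log2 fold change of 0.43 was not called (adjusted p = 0.108). The Pes1 call was lost without KO1 and with the chromosome medians removed, and the Bop1 call without KO1 and without KO2.

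Nop16, a factor of the early large subunit, lay just outside the threshold, at 41.8 and 46.5 CPM in WT and 72.4 and 63.7 CPM in KO cells (log2 fold change 0.62, SE 0.19, adjusted p = 0.0501). Nop2, the methyltransferase of 28S ribosomal RNA, had 0.42 (adjusted p = 0.139), and both genes had KO above WT. Gnl3, nucleostemin, a GTPase abundant in stem cells, measured 200 and 171 CPM in WT and 240 and 229 CPM in KO cells. Its groups did not overlap, and it was not called (log2 fold change 0.34, SE 0.18, adjusted p = 0.213). Gnl2, a related GTPase, had 0.13 with KO slightly above WT, and Rrp1 and Rrp1b overlapped between genotypes at -0.02 and -0.03.

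Levels per gene length were compared as FPKM, the deposited counts scaled for both gene length and library size. Across the 46 genes the lowest, median and highest FPKM were 5.39, 35.8 and 595 in WT1, 5.37, 32.7 and 498 in WT2, 9.17, 47 and 1380 in KO1 and 7.99, 40.3 and 1080 in KO2. Npm1 was the highest in all 4 libraries. Ncl followed in WT cells at 161 and 144 FPKM, with Nhp2 next at 87.5 and 98.4 FPKM, and the order of these 2 was reversed in KO cells, where Nhp2 stood at 278 and 210 FPKM and Ncl at 212 and 171 FPKM. Wdr12, Imp4 and Polr1e were the lowest of the 46 in WT cells, and their mean levels lay close to each other.

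**Figure D3:**
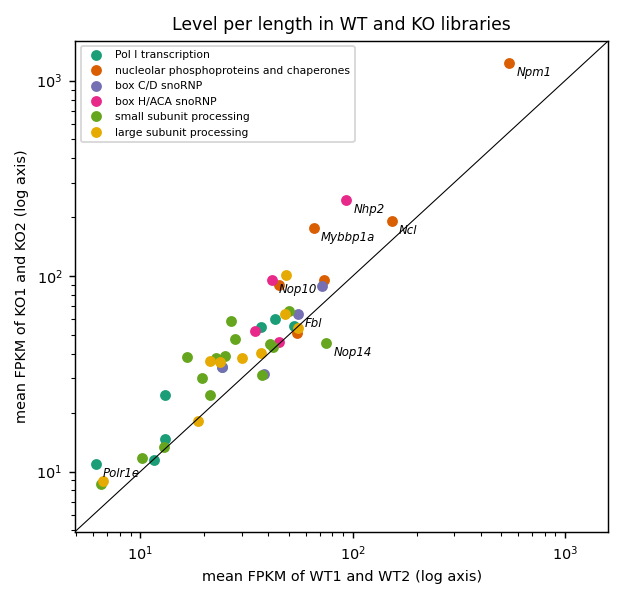
Mean FPKM in WT1 and WT2 (x axis) against mean FPKM in KO1 and KO2 (y axis), both on log axes, with 1 point for each of the 46 genes coloured by role and a diagonal of equal level. Npm1 lies at the top right, Nhp2 and Mybbp1a lie above the diagonal and Nop14 below it.

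Chromosomes 8 and 11 carried 9 of the 46 genes and 7 of the 14 rises. Genes of these 2 chromosomes as a whole were higher in both KO libraries, with a median log2 difference to WT of 0.48 in KO1 and 0.49 in KO2 on chromosome 8 and of 0.48 and 0.45 on chromosome 11, against -0.19 to 0 on every other chromosome. All 9 genes had KO above WT, as had 60.6% of all genes tested there, their median log2 fold change was 1.15 (0.50 for all genes tested there), and 7 were up-regulated (77.8%, against 26.5%). These 7 were Utp4 and Nob1 on chromosome 8 and Mybbp1a, Nhp2, Utp18, Npm1 and Pes1 on chromosome 11, and the 2 not called were Ubtf and Tsr1. Of the 37 genes on other chromosomes, 7 were up-regulated (18.9%, against 8.61%) and 1 was down-regulated, at a median of 0.33 (-0.07 for all genes there). The 7 were Nop10, Nolc1, Polr1b, Polr1e, Bop1, Bms1 and Rrp12, and both KO libraries lay above WT for 22 of the 37 (59.5%, against 28.9%). Of these 7, none was called without KO1 (3.41% of all genes there) and 2 were called without KO2 (Nop10 and Nolc1, 3.31% of all genes there). Without WT1, 11 of the 37 genes were called, against 11.5%.

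When the median of each chromosome was removed from each KO library, 4 of the 9 genes on chromosomes 8 and 11 were up-regulated (10.4% of all genes there) and 8 of the 37 others (9.18%). Mybbp1a, Nhp2, Utp18 and Utp4 kept their calls. Npm1 was then at 0.71 (SE 0.21, adjusted p = 0.0522), Pes1 at 0.60 (SE 0.19, adjusted p = 0.0599) and Nob1 at 0.16 (SE 0.18, adjusted p = 0.565). Nop16 passed the threshold in this setting, as it did with upper-quartile normalization, either other count filter, the replicate block, both FPKM settings and without WT2.

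**Figure D4:**
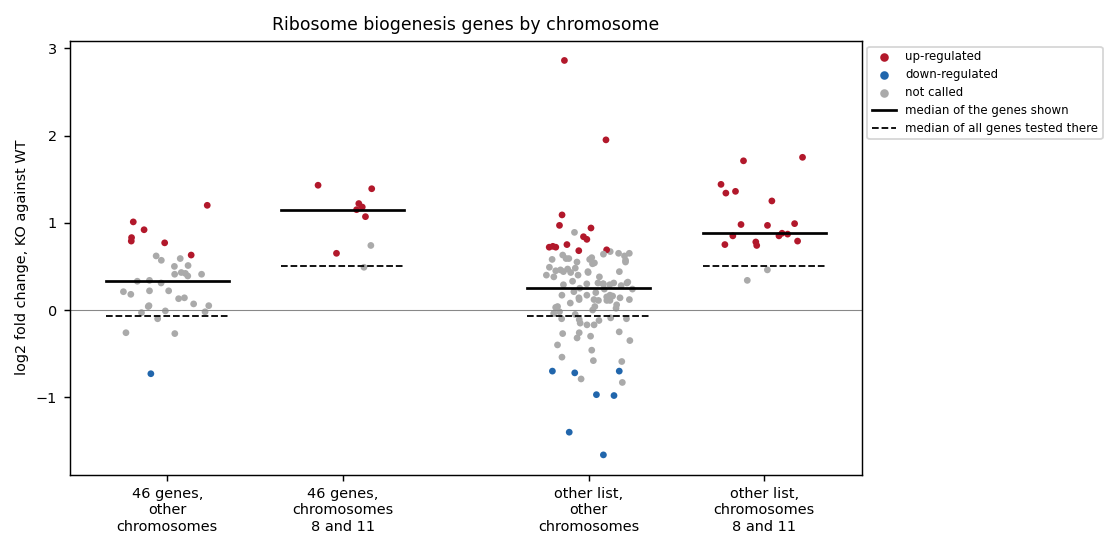
Log2 fold change of KO against WT (y axis) for the 46 genes and for 130 other ribosome biogenesis genes tested, on chromosomes 8 and 11 and on the other chromosomes. Each point is a gene, coloured by its call, solid lines are medians of the genes shown (0.33 and 1.15 for the 46, 0.25 and 0.88 for the others) and dashed lines are medians of all genes tested there (-0.07 and 0.50).

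Some reads of these genes could have been placed on near-identical copies. Of the 46 genes, 15 had processed pseudogenes that matched their transcripts, 30 in all and 9 of them of Npm1. The Npm1 copies Gm14681, Gm9118, Gm6477 and Gm5611 carried reads in all libraries. Gm14681, the most read, held 517 and 584 reads in WT1 and WT2 and 1253 and 1264 reads in KO1 and KO2. Gm9118 held 436, 376, 1063 and 1059 reads in the same order. All 4 copies were themselves up-regulated, at log2 fold changes of 1.10 to 1.37, and their reads and those of Npm1 cannot be told apart with certainty. With the copies summed, Npm1 was at 1.17 (SE 0.22, adjusted p = 0.0121). The fifth copy with at least 100 reads, Gm12751 of Polr1d, had -0.66 (adjusted p = 0.107), and with the sum Polr1d was at 0.30 (adjusted p = 0.278).

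The library strand is not given in the sources used here, and 10 of the 46 genes overlap a gene of the opposite strand with at least 100 reads. Of the up-regulated genes these were Polr1e, Mybbp1a, Nhp2 and Bop1. The partners of the last 3, Spns2, Rmnd5b and Mroh1, had log2 fold changes of 0.37, -0.08 and -0.22 and were not called. Outside these 4, Rrp1b overlaps Hsf2bp (log2 fold change -1.22, adjusted p = 0.00515) and Dkc1 overlaps Mpp1 (0.77, adjusted p = 0.0469).

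A longer list of 131 other ribosome biogenesis genes was read from the same fit. Of 130 tested, 30 were up-regulated (23.1%), against 11% of all genes, and 7 were down-regulated (5.38%), against 10.7%, at a median log2 fold change of 0.31. On chromosomes 8 and 11, 17 of 19 were up-regulated (89.5%), against 26.5% of all genes there, and on the other chromosomes 13 of 111 (11.7%), against 8.61%. All 7 down-regulated genes lay on the other chromosomes (6.31%, against 11.7%). With the chromosome medians removed, 6 of the 19 (10.4% of all genes there) and 20 of the 111 (9.18%) were up-regulated. Without KO1 and without KO2, fewer genes of the whole list were called in either direction, and so were fewer of all genes tested. By role, 14 of 46 genes of the large subunit (30.4%) and 11 of 43 of the small subunit (25.6%) were up-regulated. In the exosome and RNase MRP 2 of 21 were up-regulated (9.52%), in Pol I transcription 2 of 12 (16.7%) and in snoRNP assembly 1 of 8 (12.5%). The shares of the exosome and RNase MRP and of snoRNP assembly lie near the 11% of all genes tested.

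The 8 largest changes of that list went in both directions. Pop1, the scaffold protein of RNase MRP and RNase P, measured 18.7 and 14 CPM in WT and 125 and 111 CPM in KO cells, a rise of 2.86 (SE 0.22, adjusted p = 0.00055). Polr2k, a small subunit common to the nuclear RNA polymerases, measured 4.45 and 8.81 CPM in WT and 29 and 22.7 CPM in KO cells, a rise of 1.95 (SE 0.36, adjusted p = 0.0108), and with its processed pseudogenes summed the value was 1.51. Both lie on chromosome 15 and had no overlap between genotypes. Pno1, the partner of Nob1 in the small subunit, rose by 1.75 and Ftsj3, a pre-ribosomal methyltransferase, by 1.44, both on chromosome 11. Urb2, of the early large subunit, rose by 1.71 and Ddx49, a DEAD-box helicase, by 1.36, both on chromosome 8. With the chromosome medians removed, these 4 were still called, at 1.28 for Pno1, 0.97 for Ftsj3, 1.23 for Urb2 and 0.87 for Ddx49. With all values as measured, their adjusted p-values lay between 0.00176 and 0.00701. Riok3, a kinase that associates with the small subunit, measured 260 and 240 CPM in WT and 79.5 and 78.8 CPM in KO cells (log2 fold change -1.66, SE 0.18, adjusted p = 0.00171). Dis3, a catalytic ribonuclease of the exosome, measured 426 and 258 CPM in WT and 137 and 121 CPM in KO cells (log2 fold change -1.40, SE 0.26, adjusted p = 0.0107). For both, all KO values lay below all WT values.

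Markers of other cell types were read beside these results. The summed level of 6 trophectoderm markers was 93.2 and 88.5 CPM in WT and 218 and 194 CPM in KO cells, of which Tfap2c alone held 155 and 134 CPM in KO cells, while the defining marker Cdx2 did not exceed 0.924 CPM. The sums of 10 ES cell markers were 7620 and 6120 CPM in WT and 5480 and 5140 CPM in KO cells, with 1 of 10 called, Zfp42, at -2.64 (adjusted p = 0.000704). Sums lay between 62.8 and 91.3 CPM for 6 neural markers, 35.8 and 59 CPM for 6 fibroblast markers, of which Col3a1 and Dcn were at 0 in all libraries, 12.6 and 26.3 CPM for 6 endoderm markers and 2.62 and 5.55 CPM for 5 mesoderm markers. Their part in the results for the 46 genes was not tested.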

How the data were processed

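RNA-seq libraries of E14 cells (2 WT, 2 Npac KO lines) were analysed. The authors deposited raw read counts per gene and FPKM values of the same libraries. The submitters' processing notes name CASAVA, HISAT2 2.0.5, featureCounts 1.5.0-p3 and mm10, and the strand setting is not given in the sources used here. Only 2.85% of 52073 shared genes had the start given by a GRCm38 annotation, so no coordinates of the table are printed, and promoters carry GRCm38.p6 coordinates.

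Groups came from the sample titles. The main test was that of edgeR 4.0.16 in R 4.3.3 (filterByExpr, TMM normalization, quasi-likelihood test, KO against WT, no covariate). Calls required a Benjamini-Hochberg adjusted p under 0.05 over 18157 genes and a fold change over 1.5. SE values were derived from the fit, as the absolute log2 fold change divided by the square root of the F statistic of the quasi-likelihood test. The common biological coefficient of variation was 0.235. The script was tested on simulated data.

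Alternatives used DESeq2 1.42.0, upper-quartile normalization, DESeq2 size factors, other count filters, a replicate block, each library left out, limma 3.58.1 on log2(FPKM + 0.1) and log2(FPKM + 1), chromosome medians removed, processed pseudogenes summed (blastn 2.17.0+) and no fold threshold. Overlaps came from the coordinates in the table. Full statistics are given for every gene past both thresholds, for Ncl, Npm1, Fbl, Nop56, Dkc1, Polr1a, Polr1b, Ubtf, Rrn3, Pes1 and Gnl3 and for Npac itself, and levels or fold changes for the 8 largest changes of the longer list. Other values are named in the order of the roles. The members and lists were chosen with earlier results of these data known. Splicing was not analysed here.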

Additional observations from a re-analysis of the deposited data

How the results depend on the processing

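The 14 up-regulated and 1 down-regulated genes were all called again with DESeq2, upper-quartile normalization, DESeq2 size factors, either other count filter, both FPKM settings, summed pseudogenes and no fold threshold, with 14 to 17 up-regulated genes. Leaving out each library in turn gave 5 to 20 up-regulated genes, 0 to 1 down-regulated, 5 to 9 on chromosomes 8 and 11, 0 to 11 on other chromosomes, and medians of 0.34 to 0.51. For the longer list it gave 8 to 42 up-regulated and 2 to 10 down-regulated genes. The log2 fold change of Fbl then ran from -0.02 (without WT1) to 0.46 (without WT2), and that of Polr1a from -0.04 (without WT2) to 0.41 (without WT1). With chromosome medians removed, 4 genes on chromosomes 8 and 11 were up-regulated.

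With the replicate number as a block, 17 of the 46 genes were up-regulated and 1 was down-regulated, beside 3128 up-regulated and 2994 down-regulated genes in all (1999 and 1946 without it). Log2 differences of WT2 to WT1 and KO2 to KO1 correlated at 0.35 (Pearson) across 18157 genes, but with 2 pairs the libraries share only a number. All-gene counts without a library ran from 826 to 3571 up-regulated and from 821 to 3384 down-regulated genes. With 2 libraries per genotype, a gene that was not called is not shown to be equal between genotypes. The cause of the differences between settings was not tested.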

Other observations

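Within WT cells, the difference between WT1 and WT2 followed gene length across the 46 genes, longer genes being relatively higher in WT1. The log2 difference of WT2 to WT1 against log2 gene length had a Spearman's rho of -0.62 and a Pearson's r of -0.59 over 46 genes, which share 2 libraries and are not independent replicates. Over all 18157 tested genes the values were -0.21 and -0.15. Between KO2 and KO1 they were 0.06 and 0.08 over the 46 genes, and for the log2 fold change of KO against WT they were -0.15 and -0.19.

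KO1 was above KO2 for 39 of the 46 genes, and the summed level was 14600 CPM in KO1 and 12400 CPM in KO2, beside 9490 and 8350 CPM in WT1 and WT2. The sum over all genes tested, 1040000 CPM in KO1 and 978000 CPM in KO2, follows from the TMM scaling alone. It gives no background for the count of 39 genes or for the summed level. The share of all genes with KO1 above KO2 was not computed. Across the 46 genes the median absolute log2 difference was 0.17 in the KO pair and 0.27 in the WT pair, and the largest was 0.46 and 0.88, both for Utp20. With a chi-square per member of 37.2 and 56.8, neither pair agreed within counting error, so no library was taken for a copy of another.

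Small nucleolar RNAs encoded within these genes were barely read. Of 21 such genes in 7 of the host genes, 11 had no reads in any library. The most read, Gm22858 in Wdr43, held 20, 19, 29 and 16 reads in WT1, WT2, KO1 and KO2, and no comparison between genotypes was made for them.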
